A study of Homo sapiens with 9 samples.

Results

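The genes described here are 10 named genes of protein folding in the endoplasmic reticulum (ER) and of the unfolded protein response: HSPA5, HSP90B1, PDIA4, CALR, DNAJB9, HERPUD1, XBP1, ERN1, ATF6 and EIF2AK3. Their values are those of the transcript clusters (the probe groups of the array that each stand for a gene) that carry 1 of these 10 symbols, and the 10 names were picked with earlier results of these data known. Of the 10 genes, 9 had a cluster among the 21448 tested, and HSP90B1, which encodes the ER chaperone GRP94, is named only. RNA of ACC-MESO-1, an established human cell line from a malignant pleural mesothelioma (cancer of the membrane around the lungs), was hybridized to 9 Clariom S arrays. The cells carried a control shRNA (replicates 1 to 3), or 1 of 2 short hairpin RNAs directed at LSD1, named shLSD1 #1 (replicates 4 to 6) and shLSD1 #2 (replicates 7 to 9). LSD1 is a histone demethylase, and all 9 arrays come from cells infected with a hairpin, so no uninfected cells serve as a reference. The labels give no infection time or dose and do not say whether the replicates are separate cultures, so p-values measure the spread between these arrays, which may be technical.

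The ER folds proteins that the cell secretes or displays on its surface. HSPA5 (BiP) is its main Hsp70 chaperone and holds the 3 sensors of unfolded protein, ERN1 (IRE1 alpha), ATF6 and EIF2AK3 (PERK), inactive until unfolded proteins draw it away. Active IRE1 alpha splices the XBP1 message into the form that encodes a strong transcription factor, ATF6 is cleaved to release another, and PERK slows translation while favouring that of ATF4. XBP1 and ATF6 act on chaperone and degradation genes through a promoter sequence called the ER stress response element (ERSE). An array measures message levels, so neither splicing of XBP1, cleavage of ATF6 nor kinase activity was measured.

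The promoters of the members are shown first because the ERSE ties the chaperones and XBP1 to the sensors. The motif was searched as CCAAT and CCACG with any 9 bases between them, on both strands, in RefSeq windows from 250 bases before to 50 after each gene's start (GRCh38.p14). All 10 members matched a window by symbol, with 12 windows in all. An ERSE lay in 27 of 35116 windows over all genes (0.0769%). Among the 12 windows of the members, 4 of the 10 genes held the element, each in 1 window. The members were picked as genes of this response, so these shares are no test of enrichment. In the lines that follow the capitals mark the fixed ends of each element, read 5′ to 3′ on the strand that holds it.
HSPA5: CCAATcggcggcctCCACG
HSP90B1, distal: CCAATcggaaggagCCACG
HSP90B1, proximal: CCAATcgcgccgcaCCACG
CALR: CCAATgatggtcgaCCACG
XBP1: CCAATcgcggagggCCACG
The HSPA5 element lies at chr9:125241391-125241409, from -66 to -48 bases of the start on the gene's own strand. That of XBP1 is at chr22:28800603-28800621, from -52 to -34, also on its own strand. XBP1 has another window, at chr22:28800028-28800327, which held no match. HSP90B1 holds a distal element at chr12:103930216-103930234 (-194 to -176, same strand) and a proximal one at chr12:103930321-103930339 (-89 to -71, opposite strand). CALR holds its element at chr19:12938384-12938402 (-225 to -207, opposite strand).

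HERPUD1 carried the related ERSE-II (ATTGG and CCACG with 1 base between them), which was found in 19 windows (0.0541%).
HERPUD1: ATTGGgCCACG
This element lies at chr16:56932025-56932035, from -117 to -107 on the gene's strand. HERPUD1 also matched the amino acid response element core (TGATGNAAN), a sequence bound by ATF4 with its partners, on the opposite strand from -177 to -169, where 3.61% of windows have a match. The core of the unfolded protein response element (TGACGTG, in 1.97% of windows) and the cyclic AMP response element (TGACGTCA, in 1.85%) were in none of the members' windows. ERSE, ERSE-II and these other motifs did not overlap in any member. PDIA4, DNAJB9, ERN1, ATF6 and EIF2AK3 had none of the 5 motifs, which says only that these letters are not in this window.

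Whole upstream stretches of 250 bases, ending just before the transcription start, are printed for a member called with both hairpins (XBP1), with 1 (DNAJB9) and with neither (HSPA5). Capitals mark the whole ERSE, and DNAJB9 has no capitals because it holds no match. The stretches lie at chr9:125241344-125241593 (minus strand) for HSPA5, chr22:28800570-28800819 (minus strand) for XBP1 and chr7:108569624-108569873 (plus strand) for DNAJB9. For XBP1 only the window that holds the ERSE is printed.
HSPA5: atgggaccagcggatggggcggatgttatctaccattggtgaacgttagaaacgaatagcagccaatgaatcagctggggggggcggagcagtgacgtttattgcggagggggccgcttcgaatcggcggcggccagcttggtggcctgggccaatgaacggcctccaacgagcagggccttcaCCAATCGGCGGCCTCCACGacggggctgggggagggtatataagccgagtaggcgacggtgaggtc
XBP1: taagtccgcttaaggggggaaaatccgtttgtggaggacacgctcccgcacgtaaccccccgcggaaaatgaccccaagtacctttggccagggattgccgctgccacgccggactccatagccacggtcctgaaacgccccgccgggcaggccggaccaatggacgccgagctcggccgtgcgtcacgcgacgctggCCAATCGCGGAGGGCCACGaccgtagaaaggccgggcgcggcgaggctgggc
DNAJB9: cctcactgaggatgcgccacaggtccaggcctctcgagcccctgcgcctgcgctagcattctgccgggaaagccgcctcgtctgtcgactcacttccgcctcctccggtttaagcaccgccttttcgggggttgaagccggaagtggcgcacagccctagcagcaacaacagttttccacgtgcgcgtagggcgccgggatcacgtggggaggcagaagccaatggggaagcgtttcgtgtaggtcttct

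**Figure D1:**
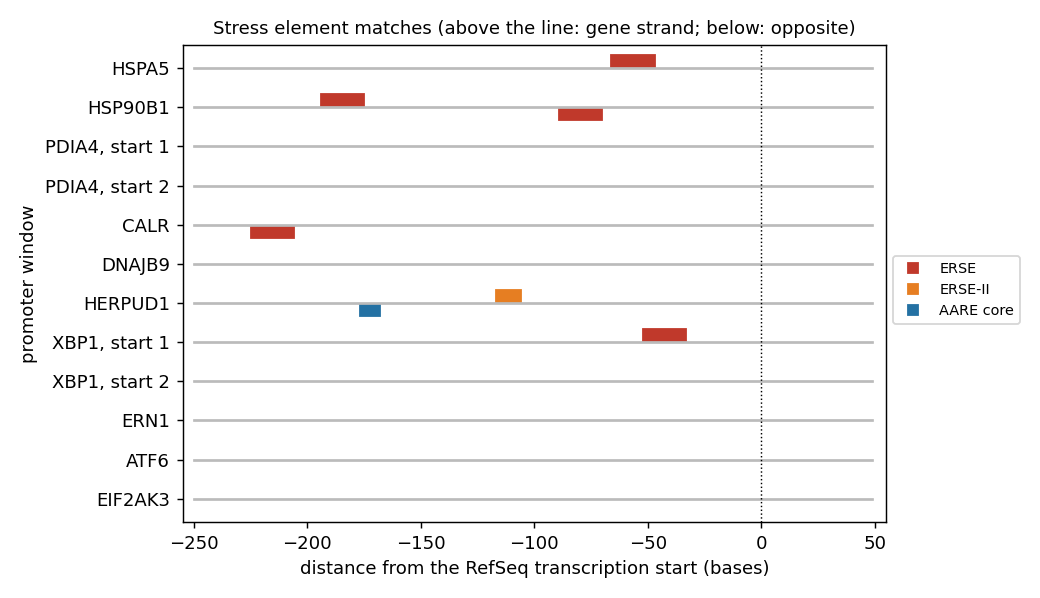
Motif matches in the RefSeq promoter windows of the 10 members, by distance in bases from the transcription start. ERSE matches appear in HSPA5, HSP90B1, CALR and XBP1, the ERSE-II and an amino acid response element core in HERPUD1, and none of the 5 motifs in the other members.

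The 9 arrays had medians between 6.39 and 6.43 on the log2 scale, and 42.0% to 46.2% of their clusters lay above the negative controls (the 95th percentile of 612 negative control probe sets on that array, 6.93 to 7.54). The hybridization spike-ins, foreign RNAs added at a set amount, were brighter on control replicates 1, 2 and 3 and on shLSD1 #2 replicates 7 and 9 (mean 11.2 to 11.4) than on the 3 shLSD1 #1 arrays and shLSD1 #2 replicate 8 (10.8 to 10.9). Of 11 mesothelial markers, 4 (MSLN, KRT7, KRT8 and KRT18) exceeded the negative controls on every control array, while CALB2, which encodes the diagnostic marker calretinin, did so on 0 of 9 arrays. The log2 of the summed mesothelial marker signal was 18.24 to 18.25 on control and 18.15 to 18.18 on hairpin arrays, a sum that KRT8 and KRT18 dominate. Single markers moved in opposite directions with both hairpins. MSLN, which encodes mesothelin, changed by -0.85 and -0.95 on the log2 scale (SE 0.17, adjusted p = 0.00729 and 0.00482 by limma). WT1 and UPK3B exceeded the negative controls on 0 of 3 control arrays, and on 6 and 5 of the 6 hairpin arrays. Mean signals for control, shLSD1 #1 and shLSD1 #2 were 7.0015, 7.84 and 7.75 for WT1 (adjusted p = 0.0156 and 0.0304) and 6.27, 7.59 and 7.61 for UPK3B (adjusted p = 0.00325 and 0.00341). Of 6 leukocyte markers only CD68, also a lysosomal protein of other cells, exceeded the negative controls, and PTPRC and CD3E did so on 0 of 9 arrays. The log2 of the summed leukocyte signal was 11.86 to 12.09 on control, 10.74 to 11.004 on shLSD1 #1 and 10.55 to 10.87 on shLSD1 #2 arrays, with CD68 changed by -1.11 and -1.35 (SE 0.14, adjusted p = 0.000649 and 0.000218 by limma). The part of these marker changes in the results was not tested. None of 5 endothelial markers exceeded the negative controls, with summed signals of 6.37 to 6.58, 6.54 to 6.93 and 6.50 to 6.70 in the same order. The hairpin labels were not checked against LSD1 message, which is not analysed here.

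Among the members, XBP1 fell with both hairpins, DNAJB9 with shLSD1 #1, and the chaperones HSPA5, PDIA4 and CALR passed the test with neither. With shLSD1 #1, 3 of the 9 measured members were called lower (XBP1, DNAJB9 and ERN1) and 0 higher, at an adjusted p under 0.05 by limma. With the spike-in class (bright or dim) entered as a block, 0 of these 3 were called with shLSD1 #1, at adjusted p of 0.175 for XBP1, 0.160 for DNAJB9 and 0.432 for ERN1. The block raised the SE of these changes from 0.12 to 0.23 for XBP1, 0.14 to 0.24 for DNAJB9 and 0.17 to 0.29 for ERN1. Every shLSD1 #1 array and no control array is dim, so a call lost with the block does not show that a change is absent. In the fit without the block, a difference of shLSD1 #1 from control cannot be told apart from one between the classes. Over all clusters, 15.8% (3385 of 21448) were called with shLSD1 #1, 7.94% lower and 7.85% higher. With the block, 399 of the 21448 were called. With shLSD1 #2, 1 of 9 was called lower (XBP1) and 0 higher, against 13.2% of all clusters, 6.63% lower and 6.56% higher. The median log2 change of the 9 members was -0.14 and -0.04, beside 0.03 and 0.02 for all clusters. Both comparisons use the same 3 control arrays, so they are not independent. Where groups are described below as lying apart, the share of all clusters that do so was not counted. Such separation alone therefore does not show a change. In bulk RNA, fewer cells of a type and less RNA per cell cannot be told apart. No filter on signal was applied, and 8 of the 9 members exceeded the negative controls on all 9 arrays, while ERN1 did so on none. The shares of all clusters therefore include clusters below the negative controls.

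**Figure D2:**
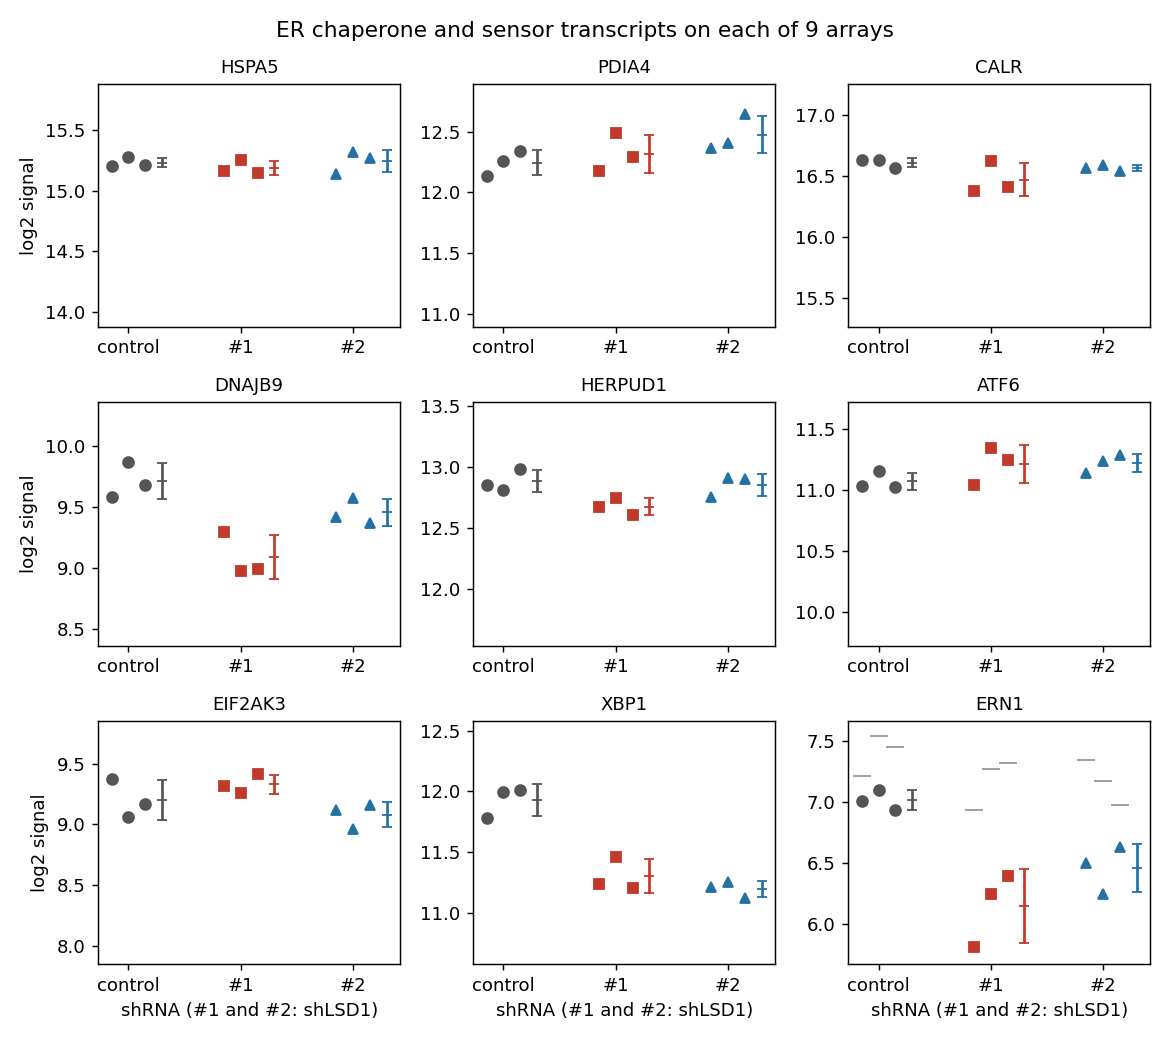
Deposited log2 signal of the 9 measured members on each array, with 3 points per group and a bar for mean ± SD (n = 3); each panel spans 2 log2 units. XBP1 is lower on all 6 hairpin arrays than on the control arrays, HSPA5 overlaps in all groups, and all ERN1 points lie below the negative control percentile of their array (grey dashes).

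HSPA5 gave log2 signals of 15.20, 15.27 and 15.21 on the control arrays, 15.16, 15.25 and 15.15 with shLSD1 #1, and 15.14, 15.32 and 15.27 with shLSD1 #2. The 3 groups overlapped. These signals lie near 16, the log2 ceiling of a 16-bit scanner, and whether they still follow the amount of message was not tested. The change was -0.04 ± 0.10 (SE) with shLSD1 #1 (95% interval -0.28 to 0.19, adjusted p = 0.823 by limma) and 0.01 ± 0.10 with shLSD1 #2 (interval -0.22 to 0.25, adjusted p = 0.956). In linear terms these intervals run from 1.21-fold lower to 1.14-fold higher with shLSD1 #1, and from 1.17-fold lower to 1.19-fold higher with shLSD1 #2. With 3 arrays a group, a change of BiP message larger than these bounds lies outside the intervals, and a smaller one lies within them. The intervals are not adjusted for the number of clusters, so their bounds are not the smallest change that would be called.

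PDIA4 is a protein disulfide isomerase that forms and rearranges disulfide bonds in client proteins. Its log2 signals were 12.14, 12.26 and 12.34 with the control shRNA, 12.18, 12.48 and 12.29 with shLSD1 #1, and 12.36, 12.41 and 12.65 with shLSD1 #2. The 3 shLSD1 #2 arrays all lay above the 3 control arrays, while the shLSD1 #1 arrays overlapped them. Neither difference passed the test, at 0.07 ± 0.13 for shLSD1 #1 (adjusted p = 0.762 by limma) and 0.23 ± 0.13 for shLSD1 #2 (95% interval -0.06 to 0.52, adjusted p = 0.320).

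CALR encodes calreticulin, a calcium-binding lectin chaperone that retains incompletely folded glycoproteins. Its log2 signals were 16.63, 16.63 and 16.57 on control arrays, 16.38, 16.63 and 16.41 with shLSD1 #1, and 16.56, 16.59 and 16.54 with shLSD1 #2. These values exceed 16, the log2 ceiling of a 16-bit scanner, on all 9 arrays, so they are relative values. Whether signals this bright still follow the amount of message was not tested, so a change could be missed. Replicates 4 and 6 of shLSD1 #1 lay below every control array, and replicate 5 lay within the control range. The changes of -0.14 ± 0.11 (95% interval -0.38 to 0.10, adjusted p = 0.442 by limma) and -0.04 ± 0.11 (interval -0.29 to 0.20, adjusted p = 0.850) did not pass the test.

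DNAJB9 (ERdj4) is a J-domain co-chaperone that stimulates the ATPase of HSPA5 and assists in delivering misfolded proteins to degradation. Its log2 signals were 9.58, 9.87 and 9.68 on control arrays, 9.30, 8.97 and 8.99 with shLSD1 #1, and 9.42, 9.58 and 9.37 with shLSD1 #2. Every hairpin array lay below every control array, by a narrow margin for shLSD1 #2 replicate 8 against control replicate 1, and the shLSD1 #1 arrays lay below the shLSD1 #2 arrays. DNAJB9 fell by 0.62 on the log2 scale with shLSD1 #1 (SE 0.14, 1.54-fold, 95% interval 1.25 to 1.90-fold, adjusted p = 0.0123 by limma). The shLSD1 #2 change of -0.26 ± 0.14 (interval -0.56 to 0.05) did not pass (adjusted p = 0.278). The shLSD1 #1 call ended without control replicate 2, at -0.54 and an adjusted p of 0.0508, and with the block, at -0.81 and an adjusted p of 0.160.

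HERPUD1 encodes a membrane protein that helps assemble the complex which moves misfolded proteins out of the ER for degradation. Its log2 signals were 12.86, 12.81 and 12.99 with the control shRNA, 12.68, 12.75 and 12.61 with shLSD1 #1, and 12.75, 12.91 and 12.90 with shLSD1 #2. The 3 shLSD1 #1 arrays lay below all control and all shLSD1 #2 arrays, which overlapped each other. The difference of -0.21 ± 0.11 with shLSD1 #1 (95% interval -0.45 to 0.04, adjusted p = 0.248 by limma) did not pass the test. With shLSD1 #2 it was -0.03 ± 0.11 (interval -0.27 to 0.22, adjusted p = 0.910).

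The sensors ATF6 and EIF2AK3 passed the test with neither hairpin. ATF6, the membrane-bound transcription factor that is cleaved in the Golgi, had log2 signals of 11.04, 11.15 and 11.02 on control arrays, 11.04, 11.35 and 11.25 with shLSD1 #1, and 11.14, 11.24 and 11.29 with shLSD1 #2. Its groups overlapped, and its changes were 0.14 ± 0.12 (95% interval -0.12 to 0.40, adjusted p = 0.477 by limma) and 0.15 ± 0.12 (interval -0.11 to 0.41, adjusted p = 0.481). EIF2AK3, the kinase PERK that phosphorylates the translation factor eIF2 alpha, had log2 signals of 9.38, 9.06 and 9.16, then 9.32, 9.26 and 9.41, then 9.12, 8.97 and 9.16 in the same order of groups. Both hairpin groups overlapped the control arrays, and the 3 shLSD1 #1 arrays lay above the 3 shLSD1 #2 arrays. The changes were 0.13 ± 0.12 (interval -0.14 to 0.40, adjusted p = 0.530 by limma) and -0.12 ± 0.12 (interval -0.39 to 0.15, adjusted p = 0.609).

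ERN1, the kinase and endoribonuclease IRE1 alpha, was not above the negative controls on any of the 9 arrays. Its log2 signals were 7.01, 7.10 and 6.93 on control arrays, 5.81, 6.24 and 6.39 with shLSD1 #1, and 6.50, 6.25 and 6.63 with shLSD1 #2. All 6 hairpin arrays lay below the control arrays. The fitted difference passed the test for shLSD1 #1 (adjusted p = 0.00693 by limma) and not for shLSD1 #2 (adjusted p = 0.0581). No fold is given, because every group lies below the negative controls and the size of a change there is not measured. Without the clusters of lowest mean (the lower tercile), with array weights, with only the groups compared or without shLSD1 #1 replicate 4, the shLSD1 #2 difference passed, at an adjusted p of 0.0322, 0.0473, 0.0403 and 0.0299.

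XBP1, whose spliced message encodes the transcription factor that IRE1 alpha activates, fell with both hairpins. Its log2 signals were 11.78, 11.99 and 12.01 with the control shRNA, 11.24, 11.46 and 11.21 with shLSD1 #1, and 11.21, 11.26 and 11.13 with shLSD1 #2. All 6 hairpin arrays lay below all 3 control arrays, and the hairpin groups overlapped. Group means were 11.93 ± 0.13 for control, 11.30 ± 0.14 for shLSD1 #1 and 11.20 ± 0.068 for shLSD1 #2 (SD, n = 3). XBP1 fell by 0.63 on the log2 scale with shLSD1 #1 (SE 0.12, 1.54-fold, 95% interval 1.28 to 1.86-fold, adjusted p = 0.00700 by limma). With shLSD1 #2 it fell by 0.73 (SE 0.12, 1.66-fold, interval 1.37 to 2.00-fold, adjusted p = 0.00364). The array gives 1 value for the gene, so its spliced and unspliced messages cannot be told apart. With the block the shLSD1 #1 change was -0.72 and no longer passed (adjusted p = 0.175). Every shLSD1 #1 array and no control array is in the dim class, so that fit draws on the shLSD1 #2 arrays to estimate the class. The shLSD1 #2 change of XBP1 was -0.76 with the block (adjusted p = 0.0123) and -0.76 over only the arrays of bright spike-ins (adjusted p = 0.0299).

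**Figure D3:**
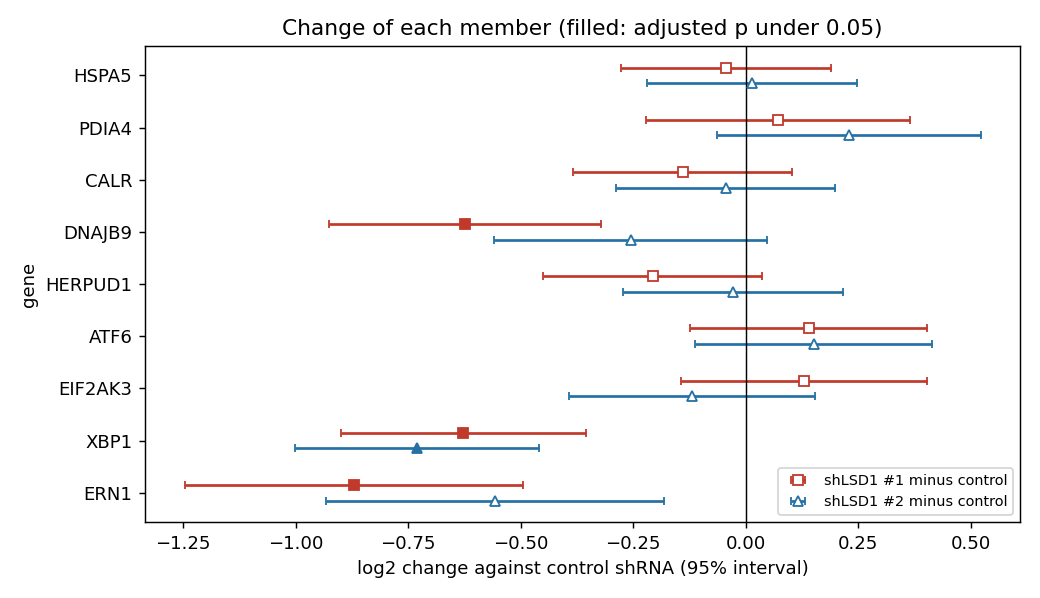
Log2 change of each measured member against control for both hairpins, with 95% intervals from limma (3 arrays a group); 0 marks no change. XBP1 lies at -0.63 and -0.73, DNAJB9 at -0.62 and -0.26, and HSPA5 at -0.04 and 0.01; the fitted ERN1 values are from signals below the negative controls.

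The hairpins were also compared with each other. None of the 9 members passed the test for shLSD1 #1 minus shLSD1 #2, beside 0.0% of all clusters by limma. At an unadjusted p under 0.05, 1 of the 9 members and 1687 of 21448 clusters differed. That member was DNAJB9, lower with shLSD1 #1 by -0.37 ± 0.14 on the log2 scale (95% interval -0.67 to -0.07, adjusted p = 0.588). For XBP1 the difference was 0.10 ± 0.12 (interval -0.17 to 0.37, adjusted p = 0.864), for HERPUD1 -0.18 ± 0.11 (interval -0.42 to 0.07, adjusted p = 0.732) and for EIF2AK3 0.25 ± 0.12 (interval -0.02 to 0.52, adjusted p = 0.666). These adjusted p-values do not show that the hairpins act alike on these genes, and a call with 1 hairpin alone does not show that they differ.

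Other genes of the pathway were gathered into 6 lists, and each is described by its counts and median beside the shares of all clusters given above. Those shares include clusters below the negative controls, whereas most genes of each list exceeded these controls on all 9 arrays. Shares among such clusters alone were not counted. With the block, no gene of the 4 ER lists was called with shLSD1 #1, where the block also raised the SE (for CRELD2 from 0.18 to 0.35). The same fit called 399 of all 21448 clusters. Of 21 other ER chaperones and folding enzymes on the array, 3 were called lower and 1 higher with each hairpin, and the median log2 change was -0.17 and -0.02. Those that fell were CRELD2, an ER stress-induced folding factor, SIL1, the nucleotide exchange factor of HSPA5, and ERO1A, the oxidase that recharges disulfide isomerases. DNAJC10 (ERdj5), a J-domain reductase that works with HSPA5, rose. Log2 changes with shLSD1 #1 and shLSD1 #2 were -0.89 ± 0.18 and -0.65 ± 0.18 for CRELD2, -0.71 ± 0.12 and -0.63 ± 0.12 for SIL1, -0.36 ± 0.10 and -0.59 ± 0.10 for ERO1A, and 0.57 ± 0.13 and 0.72 ± 0.13 for DNAJC10. The adjusted p for these 8 changes lay between 0.00316 and 0.0442 by limma. Leaving out single arrays ended the shLSD1 #1 call of ERO1A in 9 of 9 omissions (adjusted p between 0.0510 and 0.110), and that of DNAJC10 without control replicate 2 or shLSD1 #1 replicate 6 (adjusted p = 0.0595 and 0.0536). It ended the shLSD1 #2 call of CRELD2 in 7 of 9 (adjusted p between 0.0543 and 0.136). The shLSD1 #2 calls of CRELD2 and SIL1 also ended over only the arrays of bright spike-ins (adjusted p = 0.157 and 0.0538), and that of CRELD2 with the block (adjusted p = 0.106).

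Of 19 genes of ER-associated degradation, 3 were called lower and 1 higher with shLSD1 #1, and 2 lower and 0 higher with shLSD1 #2, with medians of -0.03 and 0.02. UBXN4, which recruits the ATPase VCP to the ER membrane, was called lower with both (-0.51 ± 0.12 and -0.44 ± 0.12 on the log2 scale, adjusted p = 0.0157 and 0.0359 by limma). With shLSD1 #1 its call was lost when control replicate 3 was left out (adjusted p = 0.0558), and with shLSD1 #2 in 7 of 9 omissions (adjusted p between 0.0521 and 0.107), with the block (0.0790) and over the bright arrays (0.0875). Of 24 genes of protein entry and N-glycosylation, 4 were called lower and 2 higher with shLSD1 #1, and 2 lower and 1 higher with shLSD1 #2, with medians of -0.11 and -0.05. MOGS, the glucosidase that trims the first glucose from N-glycans, had log2 changes of -0.72 and -0.64 (SE 0.11), and RPN1, a subunit of the oligosaccharyltransferase, of -0.58 and -0.50 (SE 0.12). STT3B, a catalytic subunit of the same enzyme, was called higher (0.42 and 0.46, SE 0.12). The adjusted p of these 6 changes lay between 0.00263 and 0.0449 by limma. RPN1 signals were 16.01 to 16.16 on control arrays, above the scanner ceiling, so the size of its change is uncertain. Calls of STT3B ended in 7 and 6 of 9 omissions (adjusted p between 0.0534 and 0.141), and the RPN1 call with shLSD1 #2 ended without control replicate 2 or 3 or shLSD1 #2 replicate 8 (adjusted p between 0.0598 and 0.0703). The shLSD1 #2 calls of RPN1 and STT3B ended with the block (adjusted p = 0.0692 and 0.120), and those of RPN1, STT3B and MOGS over the bright arrays (adjusted p = 0.0992, 0.132 and 0.0572).

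Of 17 regulators and partners of the 3 sensors, 1 was called lower and 2 higher with each hairpin, and the medians were -0.00 and 0.05. ATF6B, a relative of ATF6, was called higher with both hairpins (0.39 ± 0.11 and 0.43 ± 0.11 on the log2 scale), and NFE2L2, the antioxidant transcription factor NRF2 and a PERK substrate, lower (-0.56 ± 0.14 and -0.55 ± 0.14). Their adjusted p lay between 0.0224 and 0.0476 by limma. Leaving out single arrays ended the calls of ATF6B in 9 and 7 of 9 omissions (adjusted p between 0.0510 and 0.149) and those of NFE2L2 in 4 and 4 (between 0.0612 and 0.0960). With shLSD1 #2, both calls also ended with the block (adjusted p = 0.0602 for ATF6B and 0.0906 for NFE2L2) and over the bright arrays (0.100 and 0.110).

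Of 16 genes listed as the ATF4 and CHOP arm downstream of PERK, 11 were called lower and 1 higher with each hairpin. PERK activity was not measured, and whether PERK had a part in these changes was not tested. Their median log2 change was -0.75 with shLSD1 #1 and -0.82 with shLSD1 #2. CHAC1, which degrades glutathione, DDIT4 (REDD1), which restrains mTORC1, and NUPR1, a stress-induced chromatin protein, fell with both hairpins. Their log2 changes were -2.07 and -2.73 (SE 0.15), -2.33 and -2.42 (SE 0.24), and -1.59 and -1.91 (SE 0.17), with adjusted p between 4.61e-06 and 0.000269 by limma. ATF4, the transcription factor of this arm, had changes of -0.85 and -0.91 (SE 0.10, adjusted p = 0.000605 and 0.000426), and DDIT3, which encodes CHOP, of -0.70 and -0.72 (SE 0.19, adjusted p = 0.0341 and 0.0350). TNFRSF10B, ASNS, CEBPG, SESN2, TRIB3 and VEGFA were the others called lower with both. TRIB3 exceeded the negative controls on 3 control arrays, on 2 with shLSD1 #1 and on 1 with shLSD1 #2. ATF3, a stress-induced repressor, rose by 0.85 and 1.05 (SE 0.13). PPP1R15A, the phosphatase subunit that reverses the action of PERK, had log2 changes of -0.12 and -0.19 and did not pass. Genes of this list other than CHAC1, DDIT4, NUPR1 and ATF3 were chosen for mention after their values were seen. With the block, 5 of the 16 were called lower with shLSD1 #1, CHAC1 (-1.86, adjusted p = 0.0159), DDIT4 (-2.68, adjusted p = 0.0242) and NUPR1 (-1.97, adjusted p = 0.0142) among them, and ATF3 was not called (0.73, adjusted p = 0.182). Over all clusters, 399 of 21448 were called in that fit.

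Of 15 cytosolic and mitochondrial chaperones, the relatives of the members outside the ER, 0 were called lower, and 4 were called higher with shLSD1 #1 and 5 with shLSD1 #2. The median log2 change was 0.24 and 0.26. BAG3, the co-chaperone of cytosolic Hsp70, rose by 0.80 and 0.82 (SE 0.11), HSPH1, an Hsp110 exchange factor, by 0.57 and 0.63 (SE 0.11), and HSPA1A, the stress-inducible Hsp70, by 0.62 and 0.80 (SE 0.18). HSPA1A has the near-identical neighbour HSPA1B, and probes of 1 may bind the message of the other. Its shLSD1 #1 call ended in 7 of 9 omissions (adjusted p between 0.0603 and 0.124), and its shLSD1 #2 call without control replicate 1 or 2 (adjusted p between 0.0534 and 0.0603). With the block, none of the 15 was called higher with shLSD1 #1, beside 399 of 21448 clusters called in either direction. Over the bright arrays the shLSD1 #2 call of HSPH1 ended (adjusted p = 0.0566).

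**Figure D4:**
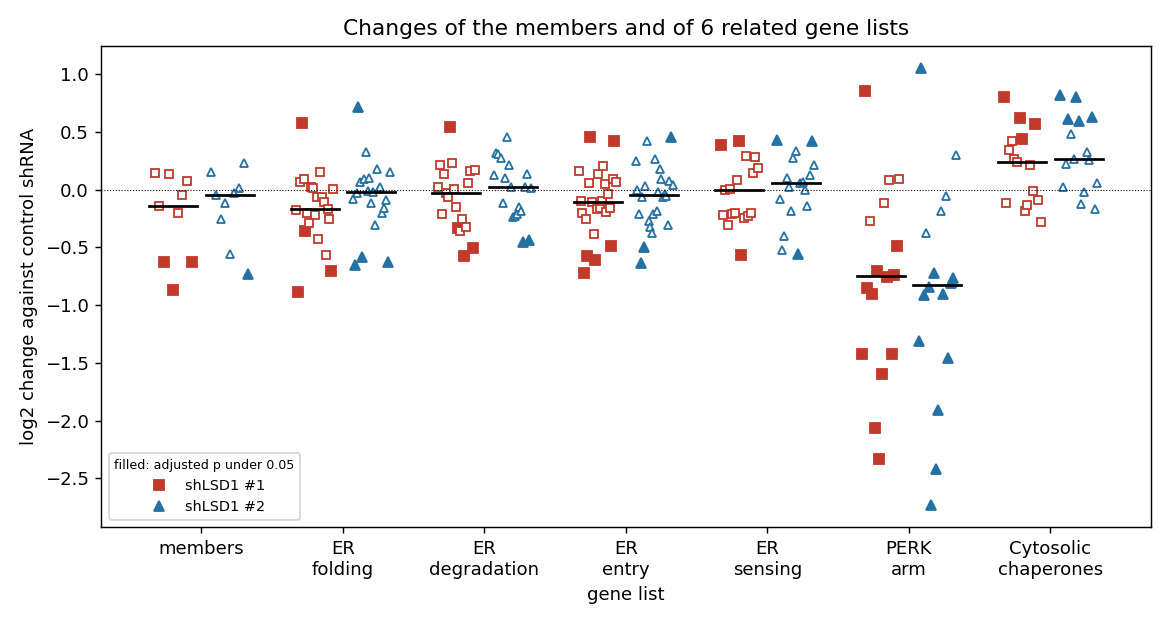
Log2 change against control of each measured member and each gene of the 6 related lists, shown for each hairpin, with the median of each column. Genes listed under the PERK arm lie mostly below 0 (medians -0.75 and -0.82), and PERK activity was not measured. Cytosolic chaperones lie mostly above 0 (0.24 and 0.26), and the medians of the 4 ER lists lie between -0.17 and 0.05.

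Profiles over the 9 arrays were compared after subtracting each gene's own control mean, among 7568 named genes above the negative controls on all 9 arrays. Those nearest to HSPA5, by root mean square difference in log2, were RTF2 (0.034), INTS7 (0.047), CCT3 (0.048), TMUB1 (0.049) and EMC4 (0.052), and their own changes with the hairpins lay between -0.09 and 0.06. Those nearest to XBP1 were SEPTIN8 (0.070), BCAT1 (0.078), KLF6 (0.082), IFITM2 (0.086) and GNAI2 (0.087), with changes of -0.53 to -0.73 with shLSD1 #1 and -0.66 to -0.77 with shLSD1 #2. No other member was among these 5 for either gene. A small distance says only that the values moved by like amounts on these 9 arrays.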

How the data were processed

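Levels were measured on 9 Clariom S arrays, 3 for each of the control shRNA, shLSD1 #1 and shLSD1 #2. The deposited values are log2 signals, which the authors summarised by RMA in Affymetrix Expression Console 1.4, per the submitters' processing notes. The log base was taken as 2, the default of RMA. RMA sets arrays to 1 common distribution, so a shift of all genes alike would not be seen. Of 24351 probe sets, 2903 controls were set aside and 21448 clusters were tested without a filter. Symbols came from the array's annotation, with 17709 clusters holding 1 symbol. For 20 symbols with several clusters the brightest stood for the gene.

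Changes were tested with limma 3.58.1 (R 4.3.3), with lmFit and eBayes on all 9 arrays in a single fit, two-sided, with Benjamini-Hochberg adjustment over all clusters and a threshold of 0.05. Precision is limited by the number of arrays. The members and the gene lists were chosen with earlier results of these data known. Genes named were the members and, per list, up to 3 with the largest rise and up to 3 with the largest fall by the mean of both changes, among those called the same way with both hairpins, and the 5 nearest in profile to HSPA5 and to XBP1. Alternatives were cyclic loess, subtraction of each array's median, a repeated quantile normalization, a fit without the lowest clusters (the lower tercile by mean), a trended robust prior, array weights, only the groups compared, the spike-in class as a block, only arrays of bright spike-ins (for shLSD1 #2) and omission of each array in turn. The spike-in classes were split at the largest gap of the arrays' mean spike-in signal (0.249). Promoter sequences are RefSeq's. The transcript of LSD1 is not analysed here. Plots were drawn with matplotlib 3.10.9.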

Additional observations from a re-analysis of the deposited data

How the results depend on the processing

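No paired analysis was possible because the labels number the replicates 1 to 9 without repeats. The members called lower stayed at 3 with shLSD1 #1 except with spike-in class as the block (0) and over the omissions of 1 array (2 to 3). With shLSD1 #2 they were 2, with ERN1 added, under the filter on low clusters, array weights and only the groups compared, and 1 to 2 over the omissions. No member was called higher under any alternative, and none differed between hairpins. The members' median log2 change ran from -0.22 to -0.08 with shLSD1 #1 and from -0.07 to -0.01 with shLSD1 #2. The cause of the changes below was not tested.

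With the block, 399 clusters were called with shLSD1 #1, and in the lists the counts called lower and higher were 0 and 0 for ER folding, ER degradation, ER entry and ER sensing, 5 and 0 for the PERK arm, and 0 higher for cytosolic chaperones. With shLSD1 #2 the block gave 0 lower in ER degradation, 1 lower and 0 higher in ER entry, and 0 of either in ER sensing. Over only arrays of bright spike-ins, 1450 clusters were called with shLSD1 #2, with 1 lower in ER folding, 0 in ER degradation, 0 of either in ER entry and ER sensing, and 2 cytosolic chaperones higher. The trended robust prior gave, with shLSD1 #1, 5 lower in ER folding, 5 lower and 2 higher in ER degradation, and 2 lower and 8 higher among cytosolic chaperones. With shLSD1 #2 it gave 2 higher in ER degradation, 4 and 4 in ER entry and 8 cytosolic chaperones higher, and between hairpins it called 42 clusters. CHAC1 was among these 42, with a log2 change of 0.67 for shLSD1 #1 minus shLSD1 #2 (adjusted p = 0.047 by limma).

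For shLSD1 #1, genes called higher in ER entry numbered 1 after a second quantile normalization, 0 after subtraction of array medians, 0 after cyclic loess and 1 with only the groups compared. Those in ER sensing numbered 0, 1 and 0 under the last 3 of these, and those in ER degradation 0 under median subtraction and only the groups compared. For shLSD1 #2, ER entry had 0 higher after a second quantile normalization or cyclic loess and 2 under the filter on low clusters, which gave 1 higher in ER degradation. With only the groups compared, ER degradation had 1 lower and ER sensing 1 higher.

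Over the omissions of 1 array, 2375 to 3275 clusters were called with shLSD1 #1 and 1918 to 2710 with shLSD1 #2. For shLSD1 #1, counts called lower and higher ran from 2 to 3 and 0 to 1 in ER folding, 1 to 2 and 0 to 1 in ER degradation, 3 to 4 and 0 to 2 in ER entry, 0 to 1 and 0 to 1 in ER sensing, 8 to 11 and 1 to 1 in the PERK arm, with 2 to 4 cytosolic chaperones higher. For shLSD1 #2 they ran from 2 to 3 and 1 to 1, 0 to 1 and 0 to 1, 1 to 2 and 0 to 1, 0 to 2 and 0 to 2, and 10 to 11 and 1 to 1 in the same order, with 3 to 6 cytosolic chaperones higher.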
